A study of Caenorhabditis elegans with 24 samples.

Results

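The col genes of Caenorhabditis elegans are the numbered members of its large collagen family. Every protein-coding gene of the deposited count tables whose WormBase symbol is col followed by a number was taken, which gave 156 genes of 46778. All 156 were annotated as protein-coding, and 41 of them lie on chromosome IV, 31 on V, 27 on X, 24 on II, 21 on I and 12 on III. The summed exons of a member had a median length of 1011.5 bases, with a range of 627 to 2588.

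RNA of whole animals was sequenced from 8 groups with 3 libraries each. Wild type (strain N2) and animals with ceh-60(ok1485) (strain DLS357) were taken on day 1 and on day 4 of adulthood. The other 4 groups were day 1 adults with pqm-1(ok485) (DLS421), pqm-1(rhd90) (DLS424), ceh-60(ok1485) with pqm-1(ok485) (DLS420) and ceh-60(ok1485) with pqm-1(rhd90) (DLS423). All wild type and single ceh-60 libraries stand in 1 deposited table and all libraries with a pqm-1 allele in the other, so that table and pqm-1 genotype cannot be told apart where both tables enter. The labels do not state what the 3 alleles remove. They also do not say that the 3 libraries of a group came from separate cultures, so the p-values measure the spread between libraries, which may be technical.

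Cuticle collagens form the layered outer coat of the worm. The epidermis makes them in pulses with each moult, hydroxylates and trims them, assembles them into trimers and crosslinks them outside the cell. Larval, dauer and adult cuticles use partly different sets, and raised levels of a few of these collagens lengthen life in the worm. The gene ceh-60 codes for a PBX-type homeodomain factor known from yolk protein production in the adult intestine. The gene pqm-1 encodes a zinc finger transcription factor known from stress and insulin signalling.

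Several libraries stood apart in epidermal genes. Levels are given as CPM (the counts of a gene scaled to a common library total) after TMM scaling over all 24 libraries, which held 18809461 to 32598349 counts each. The sum of 20 body-shape collagens (dpy, rol, sqt, bli and lon-3 genes) was 155.2 CPM in ceh-60 day 4 replicate 3, against 32.6 and 36.04 CPM in the other libraries of that group. It was 166 CPM in pqm-1(ok485) replicate 1, against 71.4 and 81.3 CPM, and 102 CPM in pqm-1(rhd90) replicate 1, against 36.5 and 33.4 CPM. In the double mutants it was 92.1 CPM in replicate 1 with rhd90, against 32.4 and 46.3 CPM, and 91.8 CPM in replicate 2 with ok485, against 40.2 and 47.1 CPM. The sum of 19 moulting and larval matrix genes was 152 CPM in that ceh-60 library and 196 CPM in that ok485 library, the highest of their groups. Among the tested col genes, wild type day 1 replicate 1 was the highest of its group in 59 of 72 (81.9%, against 38.9% of all genes tested) and wild type day 4 replicate 3 in 54 of 72 (75.0%, against 31.4%). The library ceh-60 day 1 replicate 2 was the lowest of its group in 56 of 72 (77.8%, against 37.2%), and ceh-60 with pqm-1(ok485) replicate 1 in 75 of 92 (81.5%, against 34.25%). The col genes thus differed together between libraries of one group, and the median ratio of the highest to the lowest library was 1.41 to 2.07 for them, against 1.14 to 1.23 for all genes. The targeted gene ceh-60 was at 0.586 to 2.02 CPM in every ceh-60 library and at 4.46 to 9.27 CPM in the other libraries. On day 1 pqm-1 was at 10.45 to 11.15 CPM in wild type and 28.6 to 30.6 CPM with ceh-60 alone. With ok485 it was at 5.71 to 6.19 CPM, and at 4.60 to 5.50 CPM with ceh-60 and ok485. With rhd90 it was at 13.8 to 15.98 CPM, and at 22.5 to 25.3 CPM with ceh-60 and rhd90. On day 4 it was at 24.3 to 27.3 CPM in wild type and 44.15 to 49.15 CPM with ceh-60.

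The family was carried by a small number of very abundant genes. In wild type on day 1, 20 of the 156 members had a mean of at least 100 CPM, 29 lay between 1 and 100 CPM, and 107 were under 1 CPM, of which 17 had no count. Per kilobase of exon, col-119 had the highest level on that day with 1034 CPM per kilobase, followed by col-122 with 825 and col-140 with 755, and then by col-20, col-181, col-101, col-124 and col-8. These 8 genes held 60.3% of the family's CPM. On day 4 of wild type col-122 was first with 359 CPM per kilobase, followed by col-181 with 262 and col-106 with 189.9, and the top 8 of that day held 75.0%.

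Members known for a stage or a role were spread over this range. The adult collagen col-19, which is switched on at the last moult, was at 404 to 651 CPM in wild type on day 1, whereas col-7, also known from adults, was at 0 to 0.128 CPM there. The dauer collagens col-2 and col-40 had at most 0.331 CPM in any library, and col-6, known from the same stage, was not matched to a symbol here. The collagens col-10, col-13 and col-120, known from worms with extended life, reached group means of at most 7.25, 2.43 and 1.95 CPM. The label does not hold for col-99, which encodes a transmembrane collagen and not a cuticle collagen, and it passed the test in none of the 13 comparisons. In bulk RNA of whole animals, fewer epidermal cells and less RNA per cell cannot be told apart.

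**Figure D1:**
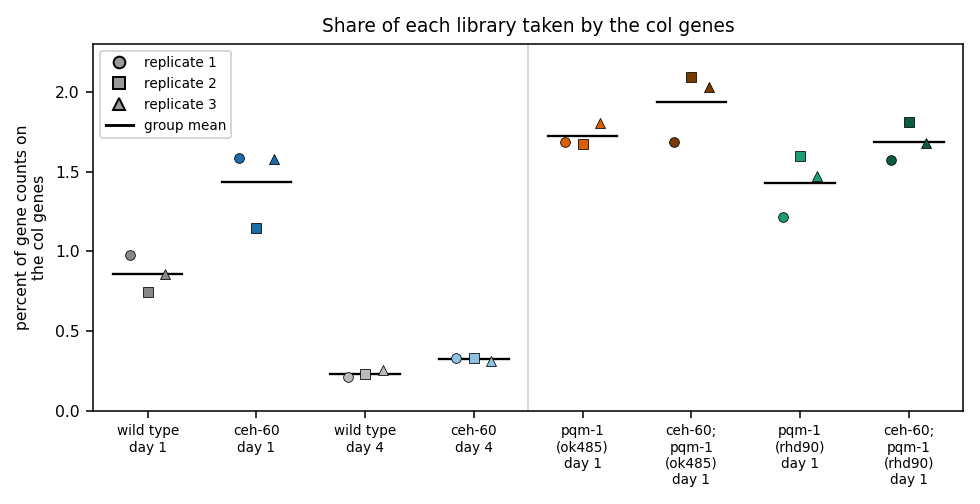
Percent of all gene counts of a library that fell on the 156 col genes (vertical axis), by group (horizontal axis), with 1 symbol per library and a bar for the group mean. Day 4 libraries of both genotypes sit at or below 0.331%, and the 12 libraries to the right of the line are those with a pqm-1 allele.

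The share of all counts that fell on the family gives its level in 1 number per library. Wild type gave 0.977, 0.748 and 0.858% on day 1 and 0.861 ± 0.115% (SD, n = 3) on average, and ceh-60 gave 1.44 ± 0.250% (n = 3). On day 4 the shares were 0.233 ± 0.0236% in wild type and 0.324 ± 0.0123% in ceh-60. With the pqm-1 alleles on day 1 they were 1.72 ± 0.0736% (ok485), 1.43 ± 0.195% (rhd90), 1.94 ± 0.221% (ceh-60 with ok485) and 1.69 ± 0.117% (ceh-60 with rhd90). The libraries did not overlap between ages in either genotype, nor between wild type and ceh-60 at either age, each with a 2-sided exact permutation p of 0.1, which is the smallest that 3 libraries against 3 allow. Within the pqm-1 strains the ceh-60 groups overlapped with their controls, with exact p = 0.3 for ok485 and p = 0.2 for rhd90.

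Within wild type and ceh-60, most of the tested members fell with age. Of 72 members that passed the filter on low counts, 39 were lower on day 4 than on day 1 in wild type (54.2%, against 26.3% of all genes tested) and 4 were higher (5.56%, against 28.4%), by edgeR's quasi-likelihood test with Benjamini-Hochberg adjustment over all genes and a threshold of 0.05. In ceh-60 animals 45 were lower (62.5%, against 24.3%) and 8 higher (11.1%, against 28.3%). The median log2 fold change of the tested members was -1.57 in wild type and -1.62 in ceh-60, against 0.02 and 0.04 for all genes. The 2 comparisons share no library, and all 39 members that fell in wild type were among the 45 that fell in ceh-60 (100% and 86.7% of each list). The other 6, col-12, col-13, col-39, col-81, col-133 and col-147, had a log2 fold change below 0 in wild type too but did not pass the test there. Over the 72 members the log2 fold changes of both genotypes had a Pearson correlation of 0.89 and a Spearman correlation of 0.92, a description across genes that share libraries within each axis.

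**Figure D2:**
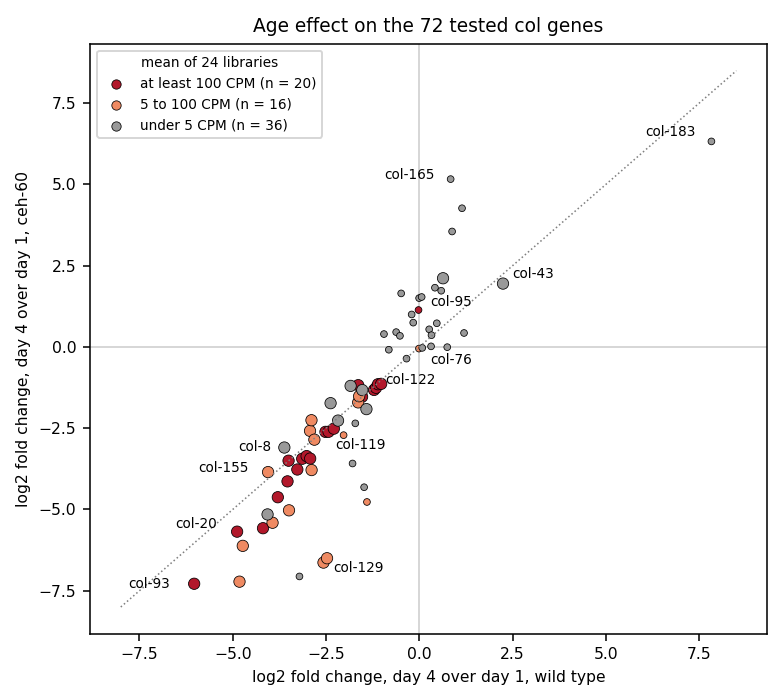
Log2 fold change from day 1 to day 4 in wild type (horizontal axis) and in ceh-60 (vertical axis) for the 72 tested col genes, coloured by mean level over 24 libraries, with large points where both tests passed. Most abundant genes lie in the lower left, and col-95 and col-76 stay near 0 in wild type.

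The size of the fall differed widely between abundant members. The collagen gene col-93, which overlaps the gene dhc-4, had 247, 178 and 219 CPM in the wild type libraries of day 1. On day 4 it had 1.23, 1.22 and 8.09 CPM. No day 4 library came near a day 1 library, and the gene fell by 6.03 ± 0.403 on the log2 scale (SE, edgeR adjusted p = 7.91e-08), or 65.5-fold. In ceh-60 it went from 380, 267 and 386 CPM to 2.60, 2.43 and 1.48 CPM, a log2 fold change of -7.29 ± 0.430 (adjusted p = 3.45e-08). Wild type day 4 replicate 3 was the highest of the day 4 libraries for this gene. Without that library it fell by 7.47 on the log2 scale. Among genes that averaged 5 CPM or more in the libraries compared, the next largest falls in wild type were those of col-20 (29.5-fold), col-124 (18.2-fold), col-155 (16.6-fold) and col-142 (15.3-fold), each with no overlap between ages, and col-124 fell by 5.14 on the log2 scale without wild type day 4 replicate 3, against 4.19 with it. The less abundant col-92 and col-94 fell 28.2-fold and 26.5-fold.

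By contrast, other abundant members fell by only about a factor of 2 to 3. The gene col-122 had 869, 749 and 797 CPM on day 1 and 331, 344 and 377 CPM on day 4 of wild type, with a log2 fold change of -1.21 ± 0.1 (edgeR adjusted p = 4.68e-07). Its neighbours in this order were col-181 (2.23-fold lower), col-184 (2.15-fold) and col-106 (2.03-fold), which all passed the test with groups that did not overlap. The most abundant gene, col-119, lay between these sizes with 1111, 938 and 1023 CPM on day 1 and 182, 199 and 162 CPM on day 4, a 5.71-fold fall (log2 -2.51 ± 0.135, adjusted p = 1.15e-08). The adult collagen col-19 fell 9.63-fold, and the abundant col-8 fell 11.3-fold. Of the 20 members with a mean of at least 100 CPM over all libraries, 19 fell in wild type, and the one that did not was col-95.

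In ceh-60 animals the largest falls among genes with a mean of at least 5 CPM were those of col-93, col-129, col-139, col-94 and col-20, and below that level col-92 and col-13 also fell, to at most 0.103 CPM in any day 4 library. Without ceh-60 day 4 replicate 3, col-139 fell by 7.29 on the log2 scale (6.5 with it) and col-94 by 6.90 (6.12 with it). The level of col-129 was 80.6, 29.02 and 106.5 CPM on day 1 and 0.587, 0.527 and 0.965 CPM on day 4 of ceh-60. No library overlapped, and the gene fell 99.3-fold (log2 -6.63 ± 0.993, edgeR adjusted p = 0.0001). In wild type it fell 5.93-fold (adjusted p = 0.0194), where the day 4 libraries had 0.270, 0.349 and 8.45 CPM. The third of these was above the lowest day 1 library at 6.28 CPM, so the groups overlapped.

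Few members rose with age, and most of those were low. In wild type col-43 went from 0.425, 0.559 and 0.710 CPM to 2.20, 2.27 and 3.67 CPM, a 4.74-fold rise (log2 2.24 ± 0.271, edgeR adjusted p = 1.34e-05). In ceh-60 it rose 3.86-fold, and col-158 rose 1.56-fold in wild type and 4.33-fold in ceh-60. The other wild type calls were col-84 and col-183, and col-183 was listed at 0 in all 3 day 1 libraries and at 0.154, 0.581 and 2.67 CPM on day 4. These low genes, and those named next, were chosen after their values were seen. In ceh-60 the calls for col-74, col-165, col-121 and col-48 had their highest value in replicate 3 of day 4, the library with the raised body-shape collagens, with 10.3, 11.6, 2.72 and 2.31 CPM against at most 1.83 CPM in the other day 4 libraries of that genotype. Without the replicate 3 libraries of day 4 in both genotypes, an alternative added after the data had been seen, 48 members passed in wild type (46 lower) and 51 in ceh-60 (45 lower).

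Genes of other tissues and of the collagen pathway moved with age too, and their part in the result was not tested. All 10 body wall muscle genes of a marker list fell in both genotypes (median log2 fold change -1.37 and -1.73), with summed levels of 1663 to 2205 CPM on day 1 and 631 to 705 CPM on day 4 of wild type. Of 11 genes of epidermal structure 5 fell and none rose in wild type, among them mup-4 and let-805, which anchor the epidermis. In ceh-60, mup-4, let-805, ifb-1 and vab-10 fell, while dlg-1, sma-1 and vab-19 rose (edgeR adjusted p = 0.0217, 2.18e-05 and 0.0211). Among body-shape collagens in ceh-60, dpy-2, dpy-3, dpy-7, dpy-10, dpy-14, dpy-17 and sqt-3 rose, and bli-1 and bli-6 fell. Their summed level was highest in ceh-60 day 4 replicate 3. Of 14 germline genes 7 rose and 3 fell in wild type, with sums of 7538 to 7994 CPM on day 1 and 7349 to 8117 CPM on day 4, which overlapped. In ceh-60 the sums were 7159 to 7838 CPM on day 1 and 6351 to 7337 CPM on day 4. Among 18 tested enzymes that modify or crosslink collagen, 9 fell and 2 rose in wild type, with bli-3 (the dual oxidase) and pdi-2 (a subunit of prolyl hydroxylase) among those that fell and dpy-18 (its catalytic subunit) among those that rose. The 3 basement membrane collagen genes emb-9, let-2 and cle-1 fell in both genotypes.

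The ceh-60 mutation was then compared with wild type at a fixed age. On day 1, 24 of 72 tested members were higher in ceh-60 (33.3%, against 16.1% of all genes tested) and 1 was lower (1.39%, against 9.46%). The median log2 fold change of the members was 0.46, where that of all genes was -0.03. Of the 20 most abundant members 15 rose and 1 fell, and the rises were 1.32-fold to 1.80-fold. On day 4, 15 of 72 were higher (20.8%, against 16.1%), a share near that of all genes. None was lower by edgeR's test (against 8.24%), where 1 was lower at an unadjusted p under 0.05 and 0 by DESeq2.

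**Figure D3:**
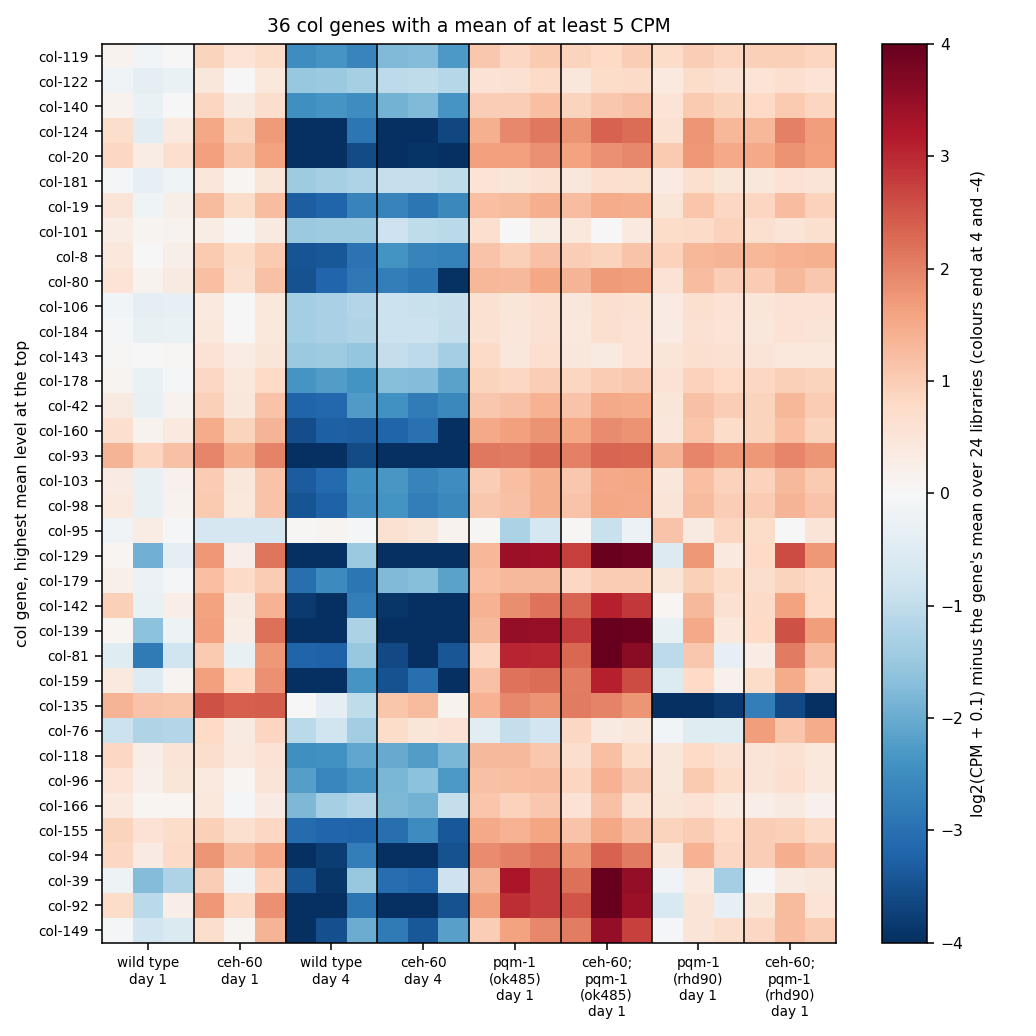
Level of the 36 col genes with a mean of at least 5 CPM (rows) in every library (columns, 3 per group in replicate order), as log2(CPM + 0.1) minus the mean of the gene. The day 4 groups are blue for most genes, and col-135 is dark blue in both rhd90 groups.

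Among the abundant members the day 1 rise was moderate. For col-119, which overlaps the gene pdzd-8, the ceh-60 libraries of day 1 had 1897, 1483 and 1696 CPM, all above the wild type libraries given before, and the gene was 1.62-fold higher (log2 0.70 ± 0.127, edgeR adjusted p = 0.00141). On day 4 it had 297, 306 and 208 CPM in ceh-60, again above all wild type libraries, and was 1.52-fold higher (adjusted p = 0.00445). Both ages gave similar sizes for col-8 (1.60-fold and 1.61-fold) and col-179 (1.998-fold and 1.94-fold). Of the 24 members that rose on day 1, 12 also rose on day 4, which is 50% of the first list and 80% of the second. Most of the 72 tested members passed at neither age. Over all 72, the log2 fold changes of the 2 ages had a Pearson correlation of -0.36 and a Spearman correlation of -0.22. These correlations weigh all members alike, also low ones with wide errors such as col-165 (log2 -3.11 ± 1.22 on day 1 and 1.22 ± 0.70 on day 4). A difference between the ages passed the test for 3 of 72 members, so the correlations were not read as a difference over the family. The abundant col-20 and col-19 rose on day 1 (1.79-fold and 1.80-fold) and did not pass on day 4, and the day 1 call of col-20 was lost with DESeq2 (adjusted p = 0.0886) and without wild type replicate 2 (0.1197) or 3 (0.0808) or ceh-60 replicate 1 (0.1049) or 3 (0.0882). Without both day 4 libraries numbered 3, an alternative added after the data had been seen, col-20 passed on day 4 (log2 0.72, edgeR adjusted p = 0.0442). Without wild type day 4 replicate 1 the day 4 count was 8.

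Among genes with a mean of at least 5 CPM, the largest rises of day 1 were those of col-81, col-129, col-76, col-159 and col-135. Below that level col-13 (4.32-fold), col-92 (2.57-fold) and col-149 (2.38-fold) also rose. For col-81 wild type had 12.2, 2.36 and 9.89 CPM and ceh-60 had 35.95, 14.01 and 57.9 CPM, where replicate 2 was the lowest of both groups and no library overlapped. The gene was 4.34-fold higher (log2 2.12 ± 0.562, edgeR adjusted p = 0.0153), and col-129 was 4.23-fold higher (adjusted p = 0.0393). Without wild type replicate 2 or ceh-60 replicate 3 of day 1, neither passed (adjusted p of 0.0521 and 0.0771 for col-81 and 0.138 and 0.147 for col-129), and the count of called members fell to 16. The call of col-129 was also lost without wild type replicate 3 (0.104) or ceh-60 replicate 1 (0.118) of day 1 and with DESeq2 (0.168). On day 4 neither gene passed. The means of col-81 were 3.17 ± 2.44 CPM (SD) in wild type and 1.27 ± 0.28 CPM in ceh-60, with no overlap. Those of col-129 were 3.02 ± 4.70 CPM and 0.69 ± 0.24 CPM. That wild type mean rested on replicate 3, and the other wild type libraries lay below all ceh-60 libraries.

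The gene col-76 had a pattern of its own. It had 7.91, 6.19 and 6.43 CPM in wild type on day 1 and 25.25, 18.6 and 26.5 CPM in ceh-60. The groups were far apart, with a 3.35-fold difference (log2 1.75 ± 0.161, edgeR adjusted p = 4.72e-06). On day 4 it had 6.75, 8.34 and 5.42 CPM in wild type and 24.3, 20.5 and 21.5 CPM in ceh-60, a 3.26-fold difference (adjusted p = 4.34e-06). Age did not pass the test for col-76 in either genotype, unlike in most members of its level.

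The other named gene of both ages was col-135. It had 22.97, 19.8 and 19.3 CPM in wild type on day 1 and 53.1, 47.6 and 48.1 CPM in ceh-60, a 2.35-fold rise with no overlap (log2 1.23 ± 0.235, edgeR adjusted p = 0.00195). On day 4 the rise was 2.51-fold (adjusted p = 0.00243). Age lowered it 3.06-fold in wild type and 2.86-fold in ceh-60; each difference passed the test in both pairs of groups.

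The only member that fell in ceh-60 on day 1 was col-95, and it went the other way on day 4. On day 1 it had 133, 182 and 139.5 CPM in wild type and 92.4, 91.9 and 91.8 CPM in ceh-60, a 1.68-fold fall (log2 -0.75 ± 0.121, edgeR adjusted p = 0.000536). On day 4 it had 150.7, 160.5 and 142.8 CPM in wild type and 225, 205.5 and 163 CPM in ceh-60, a 1.33-fold rise (adjusted p = 0.0234). The difference between these effects was tested as an interaction and was 1.16 ± 0.168 on the log2 scale (adjusted p = 0.0019). In wild type the age comparison did not pass (log2 -0.02), whereas in ceh-60 the gene rose 2.20-fold (adjusted p = 5.2e-06).

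Interactions of age with ceh-60 were few. Of 72 members, 3 had a more positive ceh-60 effect on day 4 (4.17%, against 1.82% of all genes), and none a more negative one by edgeR's test (against 2.22%), where 6 were more negative at an unadjusted p under 0.05 and 1 by DESeq2. Besides col-95 these were col-158 and col-101. The abundant col-101 had 617, 552 and 559.7 CPM in wild type and 627, 519 and 652 CPM in ceh-60 on day 1, which overlapped, and 181, 191 and 189.8 CPM against 286, 253 and 238 CPM on day 4, which did not. Its interaction was 0.46 ± 0.116 (edgeR adjusted p = 0.0433), and it was lost without each of 10 libraries in turn, with an adjusted p of up to 0.14 (without ceh-60 day 4 replicate 1). Without wild type day 4 replicate 2 only 1 member passed.

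Some genes that modify collagen were also higher in ceh-60. On day 1, 6 of 18 tested enzymes were higher and none was lower by edgeR's test, among them the prolyl hydroxylase subunits phy-2 and pdi-2, the lysyl hydroxylase let-268 and the procollagen protease dpy-31. On day 4, 6 were higher and bli-4, a furin-type protease, was lower. The 12 tested body-shape collagens had no call at either age. The epidermal regulators went both ways. The gene elt-3, a GATA factor of the epidermis, was higher at both ages (log2 0.53 and 0.99). In contrast, elt-1 was lower at both (log2 -0.60 and -0.44, edgeR adjusted p = 0.000548 and 0.00381). On day 1 nhr-25 was lower too. On day 4 lin-14 and peb-1 were higher and lin-26, myrf-1 and myrf-2 lower. Of 10 body wall muscle genes 9 were higher on day 1 (median log2 fold change 0.52; summed level 2380 to 3267 CPM against 1663 to 2205 CPM in wild type) and 2 on day 4, while of 14 germline genes 3 were lower on day 1. The part of these tissues in the rise of the col genes was not tested.

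The effect of ceh-60 was also measured within each pqm-1 allele. With ok485, 3 of 92 tested members were higher (3.26%, against 4.76% of all genes) and 3 lower (3.26%, against 4.21%), shares near or below the background. With rhd90, 2 were higher (2.17%, against 9.79%) and none was lower by edgeR's test (against 2.07%), where 2 were lower at an unadjusted p under 0.05 and 0 by DESeq2. The same numbers mark libraries that deviated together in the ok485 pair of groups, and with the replicate number as a block 21 members passed there, 13 higher and 8 lower. No share over all genes with that block stands beside this count, so it was not read as a result about the family. In the fit with no block the count was 2 without ok485 replicate 1. It was 3 without replicate 1 or replicate 3 of the double mutant.

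Here again col-76 was higher with the ceh-60 mutation. It had 10.6, 7.404 and 8.45 CPM with ok485 and 25.8, 18.6 and 19.9 CPM with ceh-60 and ok485, a 2.37-fold difference (log2 1.25 ± 0.186, edgeR adjusted p = 0.000832). With rhd90 it had 13.4, 10.4 and 10.2 CPM, and with ceh-60 and rhd90 46.65, 31.4 and 40.6 CPM, a 3.55-fold difference (adjusted p = 2.53e-05). No ceh-60 library of any group was below 18.58 CPM, and no library without the mutation was above 13.4 CPM. The count with rhd90 was 1 without any 1 library. The low gene col-150 was the other member to pass with both alleles (2.49-fold and 1.80-fold). Its call with rhd90 was lost without each library in turn, where col-76 alone passed, and with DESeq2 or RLE scaling. With ok485, col-149 was higher and col-158 lower in ceh-60, on levels of 5.43 to 32.0 and 0.512 to 2.12 CPM. The call of col-149 was lost without any 1 of 4 libraries (edgeR adjusted p up to 0.0916, without ceh-60 and ok485 replicate 2). The other members called lower there were col-116 and col-179.

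**Figure D4:**
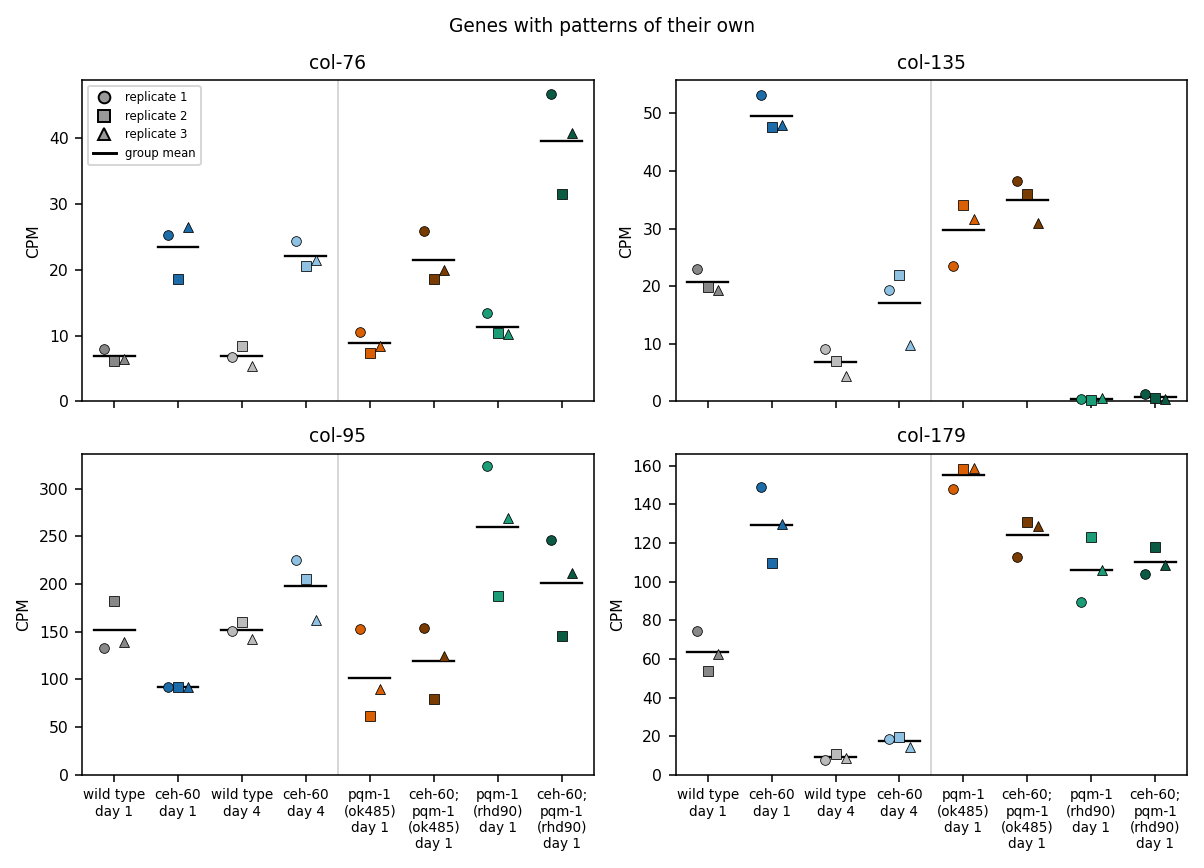
CPM of col-76, col-135, col-95 and col-179 (vertical axes, from 0) by group (horizontal axis), with 1 symbol per library and a bar for the group mean. All 12 ceh-60 libraries lie above all 12 others for col-76, and the 6 rhd90 libraries of col-135 lie at most at 1.24 CPM.

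Whether the ceh-60 effect on day 1 differed between wild type and the pqm-1 alleles was tested directly. Both tables enter here, but each ceh-60 effect is a difference within 1 table. With ok485 it was smaller for 6 of 95 tested members (6.32%, against 4.17% of all genes) and larger for none by edgeR's test (against 0.265%), where 2 were larger at an unadjusted p under 0.05 and 0 by DESeq2. With rhd90 it was smaller for 1 (1.05%, against 0.191%) and larger for none (against 0.0809%), where 1 was larger at an unadjusted p under 0.05 and 0 by DESeq2. The gene of both calls was col-179, a collagen gene of chromosome X that overlaps the gene C34F6.11, so that reads of both may be mixed. It had 74.5, 53.98 and 62.4 CPM in wild type and 149.2, 109.7 and 129.8 CPM in ceh-60, but 148, 158 and 159 CPM with ok485 and 113, 131 and 128.9 CPM with ceh-60 and ok485.

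The log2 fold change thus turned sign for col-179, from a 1.998-fold rise to a 1.27-fold fall (edgeR adjusted p = 0.0414 for the fall). The call of the fall was lost without each library of both groups in turn, with an adjusted p of 0.0507 to 0.151. It was also lost with RLE scaling (0.0569), so the fall itself was not firm. The interaction was -1.32 ± 0.181 (adjusted p = 0.000863). With rhd90 the interaction was -0.94 ± 0.182 (adjusted p = 0.0369), and that call was lost without each of 9 libraries in turn (adjusted p up to 0.1195, without ceh-60 day 1 replicate 1). The rhd90 count was 2 without wild type day 1 replicate 1, 6 without ceh-60 day 1 replicate 2, 3 without rhd90 replicate 1 and 0 without any 1 of those 9. The other named members with a smaller effect with ok485 were col-135 (-0.999 ± 0.214, adjusted p = 0.0163) and col-119 (-0.81 ± 0.131, adjusted p = 0.00353), and col-8, col-178 and col-143 completed the 6. For col-135 the call was lost without ceh-60 day 1 replicate 1 (adjusted p = 0.05, at the threshold) and without ceh-60 and ok485 replicate 3 (adjusted p = 0.0556). The count itself was 3 without ceh-60 day 1 replicate 1, 14 without wild type day 1 replicate 1 and 16 without ceh-60 day 1 replicate 2.

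The 2 pqm-1 alleles differed from each other in the family. Of 92 tested members 30 were lower with rhd90 than with ok485 (32.6%, against 5.72% of all genes) and 1 was higher (1.09%, against 1.67%). In the ceh-60 background, in other libraries, 39 were lower (42.4%, against 6.37%) and 4 higher (4.35%, against 7.89%). The members' median log2 fold change was -1.12 and -1.16, against -0.002 and 0.024 for all genes. Of the members lower with rhd90, 22 were in both lists, which is 73.3% of the first and 56.4% of the second. With the replicate number as a block, since libraries of the same number deviated together in the first of these comparisons, 66 members passed, 5 higher and 61 lower. No share over all genes with that block stands beside this count.

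How many passed depended on single libraries. The first count was 55 without ok485 replicate 1, and 7, 9, 10 and 3 without ok485 replicate 2, ok485 replicate 3, rhd90 replicate 1 and rhd90 replicate 3. The second was 21, 19 and 21 without ceh-60 and ok485 replicate 2, ceh-60 and rhd90 replicate 1 and ceh-60 and rhd90 replicate 3. With all 4 libraries numbered 1 left out, an alternative added after the data had been seen, the counts were 55 (52 lower) and 62 (57 lower). Among 10 body wall muscle genes 1 and 2 were lower with rhd90, with sums of 1346 to 2424 CPM against 2114 to 3542 CPM for the single alleles, and their part in the result was not tested.

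The largest difference among members that passed was that of col-135. It had 23.6, 34.01 and 31.7 CPM with ok485 but 0.377, 0.319 and 0.533 CPM with rhd90. In the ceh-60 background it had 38.2, 36 and 30.9 CPM against 1.24, 0.636 and 0.412 CPM. All rhd90 libraries were far below all ok485 libraries, and the difference was 72.9-fold (log2 -6.19 ± 0.286, edgeR adjusted p = 2.77e-07) and 43.5-fold (log2 -5.44 ± 0.250, adjusted p = 1.36e-07). Without ceh-60 and rhd90 replicate 1 the second value was -6.05. Against wild type, in the other table, rhd90 was 50.65-fold lower (adjusted p = 1.01e-09).

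The gene col-135 lies at IV:15129666-15131797 in the coordinates of the deposited tables, away from pqm-1 on chromosome II, and overlaps no other gene. Of 11 protein-coding genes within 20000 bases of it, 2 had enough counts to be tested. The nearest of these, clec-190 (IV:15124931-15126122), a C-type lectin gene, was also lower with rhd90, by 2.89 on the log2 scale against ok485 (edgeR adjusted p = 0.00497) and by 4.58 in the ceh-60 background (adjusted p = 0.000624). The farther one, M199.2, did not pass in either (log2 0.13 and 0.19). These neighbours were looked at after the values of col-135 were seen.

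The other named genes that were lower with rhd90, col-39, col-92 and col-133, had means of at most 2.45 CPM in wild type on day 1. The gene col-39, which overlaps dph-2, had 5.83, 22.1 and 16.1 CPM with ok485 and 1.99, 2.92 and 0.8001 CPM with rhd90, which did not overlap (log2 -2.95 ± 0.658, edgeR adjusted p = 0.0191). Replicate 1 was the lowest of the ok485 libraries. In the ceh-60 background it had 10.5, 51.4 and 26.3 CPM against 2.21, 2.91 and 3.07 CPM (log2 -3.42 ± 0.608, adjusted p = 0.0035). Its call against ok485 alone was lost without ok485 replicate 2, rhd90 replicate 1 or rhd90 replicate 3, with adjusted p of 0.0709, 0.0746 and 0.0974, and that of col-92 (6.46-fold lower, adjusted p = 0.00837) without rhd90 replicate 3 (0.0566). In the ceh-60 background col-133 was 15.3-fold lower (log2 -3.93, adjusted p = 0.00349). Without ceh-60 and ok485 replicate 2 the log2 values there were -3.18 for col-133 and -2.74 for col-39.

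**Figure D5:**
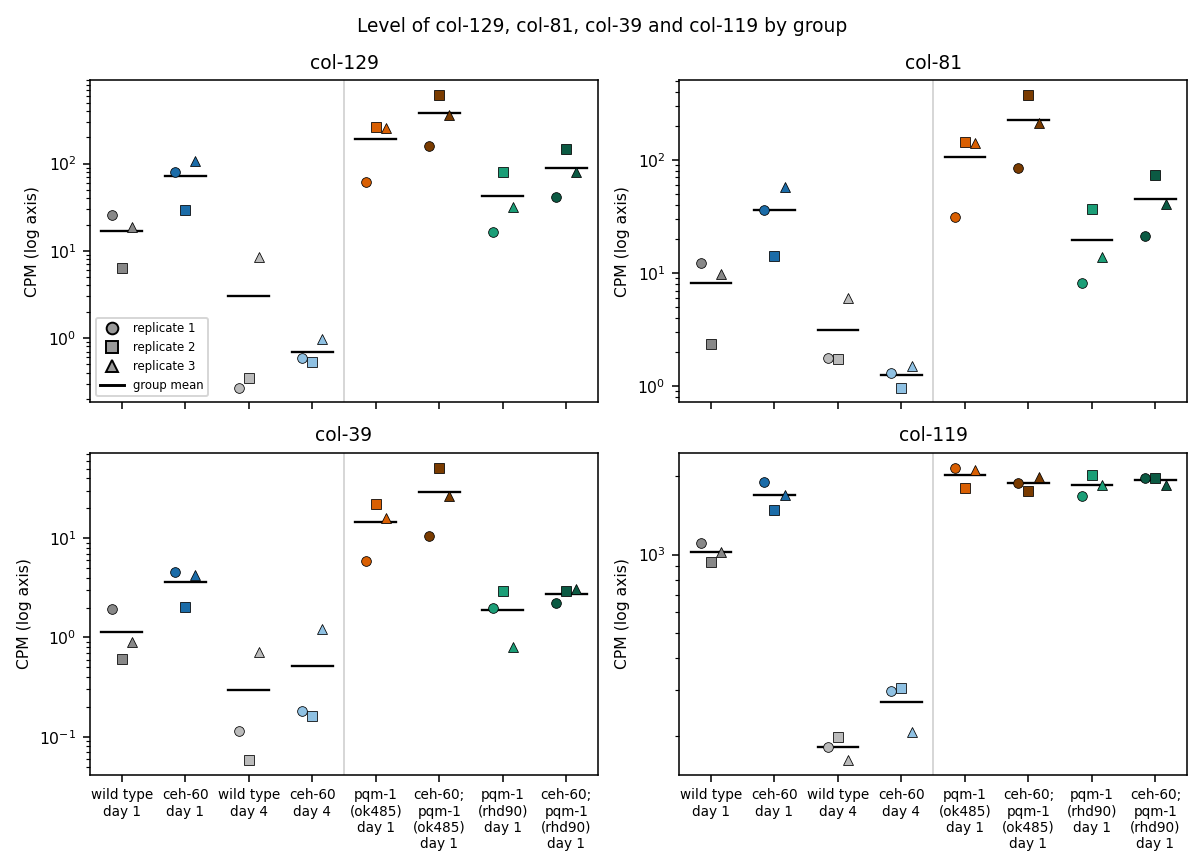
CPM on a log axis of col-129, col-81, col-39 and, for comparison, col-119 (vertical axes) by group (horizontal axis), with 1 symbol per library and a bar for the group mean. In the groups with a pqm-1 allele replicate 1 is the lowest for col-129 and col-81, and the group means with rhd90 lie below those with ok485 for col-129, col-81 and col-39.

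Members that were higher with rhd90 were fewer. The gene col-95 had 153, 61.3 and 89.6 CPM with ok485 and 323.5, 187.8 and 269.1 CPM with rhd90, which did not overlap, a 2.498-fold difference (log2 1.32 ± 0.330, edgeR adjusted p = 0.0319). That call was lost without ok485 replicate 2 or 3 or rhd90 replicate 1 or 3 (adjusted p of 0.112, 0.107, 0.123 and 0.106). In the ceh-60 background col-76 (1.87-fold), col-8 (1.31-fold), col-158 (3.53-fold) and col-43 (4.22-fold) were higher. The call of col-8 was lost without ceh-60 and ok485 replicate 1 or 2 or ceh-60 and rhd90 replicate 3 (adjusted p of 0.0557, 0.0915 and 0.0789).

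The difference between alleles was uneven over the levels of the family. Of the 20 members with a mean of at least 100 CPM, 3 were lower with rhd90 in otherwise wild type animals and 1 in the ceh-60 background, with median log2 fold changes of -0.20 and -0.10. Of 16 with a mean of 5 to 100 CPM, 9 and 12 were lower (medians -1.14 and -1.64). Of 56 tested members under 5 CPM, 18 and 26 were lower (medians -1.99 and -2.24), among them col-12 and col-13 in both. In the fit of wild type and ceh-60 only 36 members under 5 CPM passed the filter on low counts. Some of the 56 may thus have been tested only because they were high with ok485, which favours a lower level with rhd90. The same holds for the 92 tested members of the whole family, and its part in the counts was not tested. Of 20 body-shape collagens 5 and 7 were lower and none higher by edgeR's test, with bli-1, dpy-5, dpy-13 and sqt-1 in both.

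Against wild type, the pqm-1 libraries were higher for many members, but here table and genotype cannot be told apart. With ok485, 75 of 95 tested members were higher (78.95%, against 26.7% of all genes) and none was lower by edgeR's test (against 20.9%), where 2 were lower at an unadjusted p under 0.05 and 0 by DESeq2. Their median log2 fold change was 1.84, against 0.02 for all genes, and 61 were at least 2-fold higher. With rhd90, 24 were higher (25.3%, against 17.6%) and 1, col-135, was lower (1.05%, against 10.5%), with a median of 0.61. Without wild type day 1 replicate 2 the rhd90 count was 15.

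Most of the abundant genes were higher than wild type with each allele. For col-119 the libraries had 2162, 1803 and 2111 CPM with ok485 and 1686, 2018 and 1854 CPM with rhd90, against 1111, 938 and 1023 CPM in wild type. None of them overlapped with wild type, and the gene was 1.94-fold (edgeR adjusted p = 5.63e-06) and 1.78-fold higher (adjusted p = 1.19e-05). Of the 20 most abundant members 18 were higher with ok485 and 19 with rhd90, with median log2 fold changes of 0.97 (range -0.61 to 1.53) and 0.78 (0.35 to 0.98). The gene col-95 did not pass with ok485 (log2 -0.61) and was higher with rhd90 (log2 0.75, adjusted p = 0.0493). Of the 59 tested members under 5 CPM, 42 were higher with ok485 and 3 with rhd90. Some of them, such as col-109, col-120 and col-130, passed the filter on low counts only where pqm-1 libraries entered. The counts with ok485, in this class and over the family, may thus include members tested only because they were high with ok485. How far this set the counts was not tested.

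Among genes with a mean of at least 5 CPM, the largest differences from wild type with ok485 were those of col-81 (12.8-fold), col-39 (12.5-fold) and col-129 (11.4-fold). Without wild type day 1 replicate 1, col-39 was 4.30 higher on the log2 scale, against 3.65 with it. For col-129 the libraries had 60.8, 259 and 254 CPM with ok485 against 25.4, 6.28 and 18.5 CPM in wild type, which did not overlap (log2 3.51 ± 0.758, edgeR adjusted p = 0.00191). With rhd90 it had 16.2, 80.8 and 31.5 CPM, which overlapped with wild type. With ceh-60 and ok485 it reached 161, 612 and 357 CPM, the highest of all groups. The adult collagen col-7, at most 0.128 CPM in wild type on day 1, had 0.397, 1.72 and 1.37 CPM with ok485 (adjusted p = 0.00246). The longevity collagens col-10, col-13 and col-120 were all higher with ok485 (3.30-fold, 11.2-fold and 4.90-fold), and col-10 with rhd90 (1.81-fold).

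Among the members that reached 1 CPM in a group, the ok485 strains held most of the highest levels. Of 88 such members, 46 had their highest group mean with ceh-60 and ok485 and 32 with ok485. With rhd90 it was 2, and with ceh-60 and rhd90 also 2. The lowest group mean was in wild type on day 4 for 34 and in ceh-60 on day 4 for 30. No share over all genes stands beside these counts. A member could reach 1 CPM through its level in the ok485 groups alone, so the counts of highest levels were partly set by that choice. On day 1, 107 members were under 1 CPM in wild type and 74 with ok485. Table and pqm-1 genotype cannot be told apart here either. Other cuticle genes moved the same way with ok485 against wild type, with 15 of 20 body-shape collagens, 11 of 19 moulting genes and 7 of 11 genes of epidermal structure higher and none lower by edgeR's test. Germline genes were lower in 8 of 14 with ok485, and their sums were 5830 to 7170 CPM against 7538 to 7994 CPM in wild type. Body wall muscle genes were higher in 7 of 10. The part of these tissues was not tested.

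Members that lie side by side on a chromosome did not always share a pattern. The neighbours col-92, col-93 and col-94 on chromosome III (III:10982166-10987873), each within 5000 bases of the next, all fell with age in wild type. Their means on day 1 were 2.45, 214.6 and 7.85 CPM, and each of them overlaps the gene dhc-4. On the same chromosome col-95 and col-96 are 621 bases apart on opposite strands, and with age in wild type their log2 fold changes were -0.02 and -2.89. Against ok485 in rhd90 they were 1.32 and -0.48. On chromosome II, col-39 and col-80 are 1181 bases apart on the same strand, with 1.14 and 399 CPM in wild type on day 1 and log2 fold changes of -2.95 and -0.48 between rhd90 and ok485. Counting ignored strand, and 40 members overlap the span of another protein-coding gene, so that their reads could be shared.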

How the data were processed

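mRNA of whole worms was turned into libraries by the TruSeq RNA v2 protocol, per the labels' protocols. The deposited values are whole-number counts per gene. The authors made these counts with featureCounts 1.5.2 against WormBase release 260, per the file headers, after alignment with STAR 2.5.4, per the submitters' processing notes. Strand was ignored, per the file headers, so reads of overlapping genes cannot be separated; 40 members overlap the span of another protein-coding gene.

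Biotypes came from Ensembl release 115. Counts were tested with edgeR 4.0.16 (R 4.3.3), by the quasi-likelihood test with TMM scaling and Benjamini-Hochberg adjustment over all tested genes. The fits were the 12 libraries of wild type and ceh-60 (13137 genes after edgeR's filter on low counts), the 12 pqm-1 libraries (13324 genes) and the 18 libraries of day 1 (13589 genes). Tables and summaries were made with Python 3.11.15, and the scripts were tested on simulated data. Alternatives were DESeq2 1.42.0, RLE scaling, no filter, a 2-fold minimum, a replicate block, only the compared groups, and leaving out each library.

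Named genes were the members with known roles, the 8 with the highest level per kilobase in wild type on day 1 and, per comparison, up to 5 rising and 5 falling members (3 and 3 with a pqm-1 allele or for interactions) with the largest log2 fold change. The latter had passed the test, averaged 5 CPM or more and, outside interactions, came from groups that did not overlap. Members named outside this rule, such as those that complete a small count, chromosome neighbours and low genes, were picked with their values known. The members and the 12 gene lists were chosen with earlier results of these data known. Replicate numbers were taken as pairs where every correlation of same-numbered deviations was over 0.1. These were 0.49, 0.45 and 0.17 for ceh-60 within ok485, and 0.47, 0.39 and 0.12 for rhd90 against ok485; the pairing comes from this check, since the labels give only the numbers.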

Additional observations from a re-analysis of the deposited data

Results flagged for a closer look

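Differences between 2 effects, tested as interactions with edgeR's quasi-likelihood test, drew attention in 3 comparisons. The ceh-60 effect differed between day 4 and day 1 for 3 members, among them col-95 (a difference of 1.16 on the log2 scale) and col-101 (0.46). The day 1 effect of ceh-60 differed between ok485 animals and animals with wild type pqm-1 for 6 members, among them col-179 (-1.32), col-135 (-1.0) and col-119 (-0.81). Between rhd90 animals and animals with wild type pqm-1 it differed for 1 member, col-179 (-0.94).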

How the results depend on the processing

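With 1 library left out at a time, 39 to 47 members passed with age in wild type and 50 to 55 in ceh-60. The same ranges were 16 to 28 for ceh-60 on day 1, 8 to 16 on day 4, 2 to 7 within ok485, 1 to 1 within rhd90, 3 to 55 for rhd90 against ok485, 19 to 57 for that comparison in ceh-60, 62 to 79 for ok485 and 15 to 25 for rhd90 against wild type. For the interactions they were 1 to 3 (age by ceh-60), 3 to 16 (ceh-60 by ok485) and 0 to 6 (ceh-60 by rhd90). The cause of these moves was not tested.

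With a 2-fold minimum the counts were 8 (ceh-60 on day 1), 2 (on day 4), 1 (within rhd90), 1 and 0 (ceh-60 by ok485 and by rhd90) and 1 (rhd90 against wild type). DESeq2 gave 5 for age by ceh-60 (4 higher, 1 lower), 1 within rhd90, 54 for rhd90 against ok485 and 13 and 5 for ceh-60 by ok485 and by rhd90. Without a filter these counts were 14, 1, 55, 18 and 9. RLE scaling gave 1 within rhd90, 3 for ceh-60 by rhd90 and, within ok485, 3 higher and 2 lower. Without the 4 libraries numbered 1, rhd90 against ok485 gave 55. With a replicate block the counts were 6 for age by ceh-60, 21 within ok485, 11 within rhd90, 66 for rhd90 against ok485, 68 for the same in ceh-60, and 28 and 18 for ceh-60 by ok485 and by rhd90; except within ok485 and for rhd90 against ok485, libraries of these groups share only a number. No share over all genes stands beside the counts of these alternatives. The summed level of ceh-60 within ok485 was 0.027 on the log2 scale without the vit genes in the total, against 0.163.

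Directions turned for genes that had not passed. On day 1, col-101 ranged from -0.036 (without ceh-60 replicate 3) to 0.124 in ceh-60 when 1 library was left out. On day 4, col-124 ranged from -0.726 to 0.639 (without wild type replicate 3) and was 0.22 without both libraries numbered 3, and col-20 was 0.721 without both libraries numbered 3 (adjusted p = 0.0442, now past the threshold), ranged up to 0.519 with 1 library left out and was -0.191, -0.176, -0.026 and -0.154 without wild type replicate 1 or 2 or ceh-60 replicate 1 or 2. Members under 1 CPM were limited by depth, and a count of 0 there does not show absence.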
